A study of Mus musculus with 59 samples.

Results

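Imprinted genes are expressed from the maternal or the paternal copy only, or mostly so, as set by DNA methylation laid down in the germ line at imprinting control regions. Most lie in clusters that share a control region, and in several clusters a long noncoding RNA made from 1 parental copy silences protein-coding neighbours on the same copy. Many of them act in growth of the embryo and placenta, and ESCs are known to lose or gain imprints during derivation and culture, so that their levels can differ between lines. The 36 imprinted genes described here were chosen by symbol from textbook clusters, and 36 of 36 were found among the 24391 genes of the deposited tables. By the parental copy that is usually active, 19 are paternally and 17 maternally expressed.

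The study asked how subcomplexes of Polycomb repressive complex 1 (PRC1), which mono-ubiquitinates histone H2A through RING1A and RING1B, bear on transcription when mouse ESCs form embryoid bodies (EBs). It used 6 conditional ESC lines with a CreERT2 gene, 1 line for each genotype, and 59 RNA-seq libraries were analysed. The *Pcgf1* f/f line gave 19 libraries, and each of the point mutant (*Ring1A* pm/pm;*Ring1B* cpm), *Ring1A/B*, *Pcgf2/4*, *Pcgf3/5* and *Pcgf6* lines gave 8, that is 2 for each of 4 groups. Control cells had no 4-hydroxytamoxifen (4-OHT) and mutant cells had it, which activates Cre; *Pcgf1* mutants are called *Pcgf1*-KO. ESCs grew with LIF and the inhibitors SU5402, PD184352 and CHIR99021 on feeder fibroblasts, and EBs grew for 2 days in suspension without them. Controls of the *Ring1A/B* line already lack *Ring1A* (*Ring1A*-/-;*Ring1B* f/f), and controls of the point mutant line already carry catalytically dead *Ring1A* (pm/pm), so that 4-OHT removes or inactivates *Ring1B* in these cells. The other genotypes were *Pcgf2* f/f;*Pcgf4* f/f, *Pcgf3* f/f;*Pcgf5* f/f and *Pcgf6* f/f, where *Pcgf4* is the gene listed as *Bmi1*. For EBs, 4-OHT was given when EBs were set up in the *Ring1A/B* and *Pcgf6* lines and 2 days earlier in the other *Pcgf* lines.

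The values are TPM, a transcript level scaled to gene length and to a library total of 1000000, so levels can be compared between genes. They do not tell the parental copies apart, and the depth of the libraries is unknown. Each library listed 6039 to 9139 genes at 0, and no 2 libraries held identical values. File names gave another condition than the label for 21 of 32 libraries in 4 of the lines, which were 4 libraries of *Ring1A/B*, 6 of *Pcgf2/4*, 5 of *Pcgf3/5* and 6 of *Pcgf6*. Names and labels gave the same condition for all 27 libraries of the *Pcgf1* and point mutant lines. The groups are those of the labels throughout, results within the latter pair of lines come first, and for the other lines the text speaks of libraries labelled as a group. In bulk RNA, fewer cells of a type and less RNA per cell cannot be told apart.

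By median TPM over the 59 libraries, 20 of the 36 imprinted genes were at 10 or above, 7 from 1 to under 10, and 9 under 1. *Cd81*, a tetraspanin of the cell surface, and *Slc38a4*, an amino acid transporter of the placenta, stood at the top. The 9 genes under 1 TPM were *Kcnq1ot1*, *Magel2*, *Peg13*, *Usp29*, *Zim1*, *Kcnq1*, *Airn*, *Snrpn* and *Rasgrf1*. For *Snrpn* the value may be too low, because its transcript also encodes *Snurf*, which was listed at 0 in all 59 libraries, and how reads on overlapping genes were counted is not given in the sources used here. The same holds for *Airn*, which overlaps *Igf2r* on the other strand, and for *Kcnq1ot1*, which lies antisense within *Kcnq1*, since the strand setting is not given either.

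**Figure D1:**
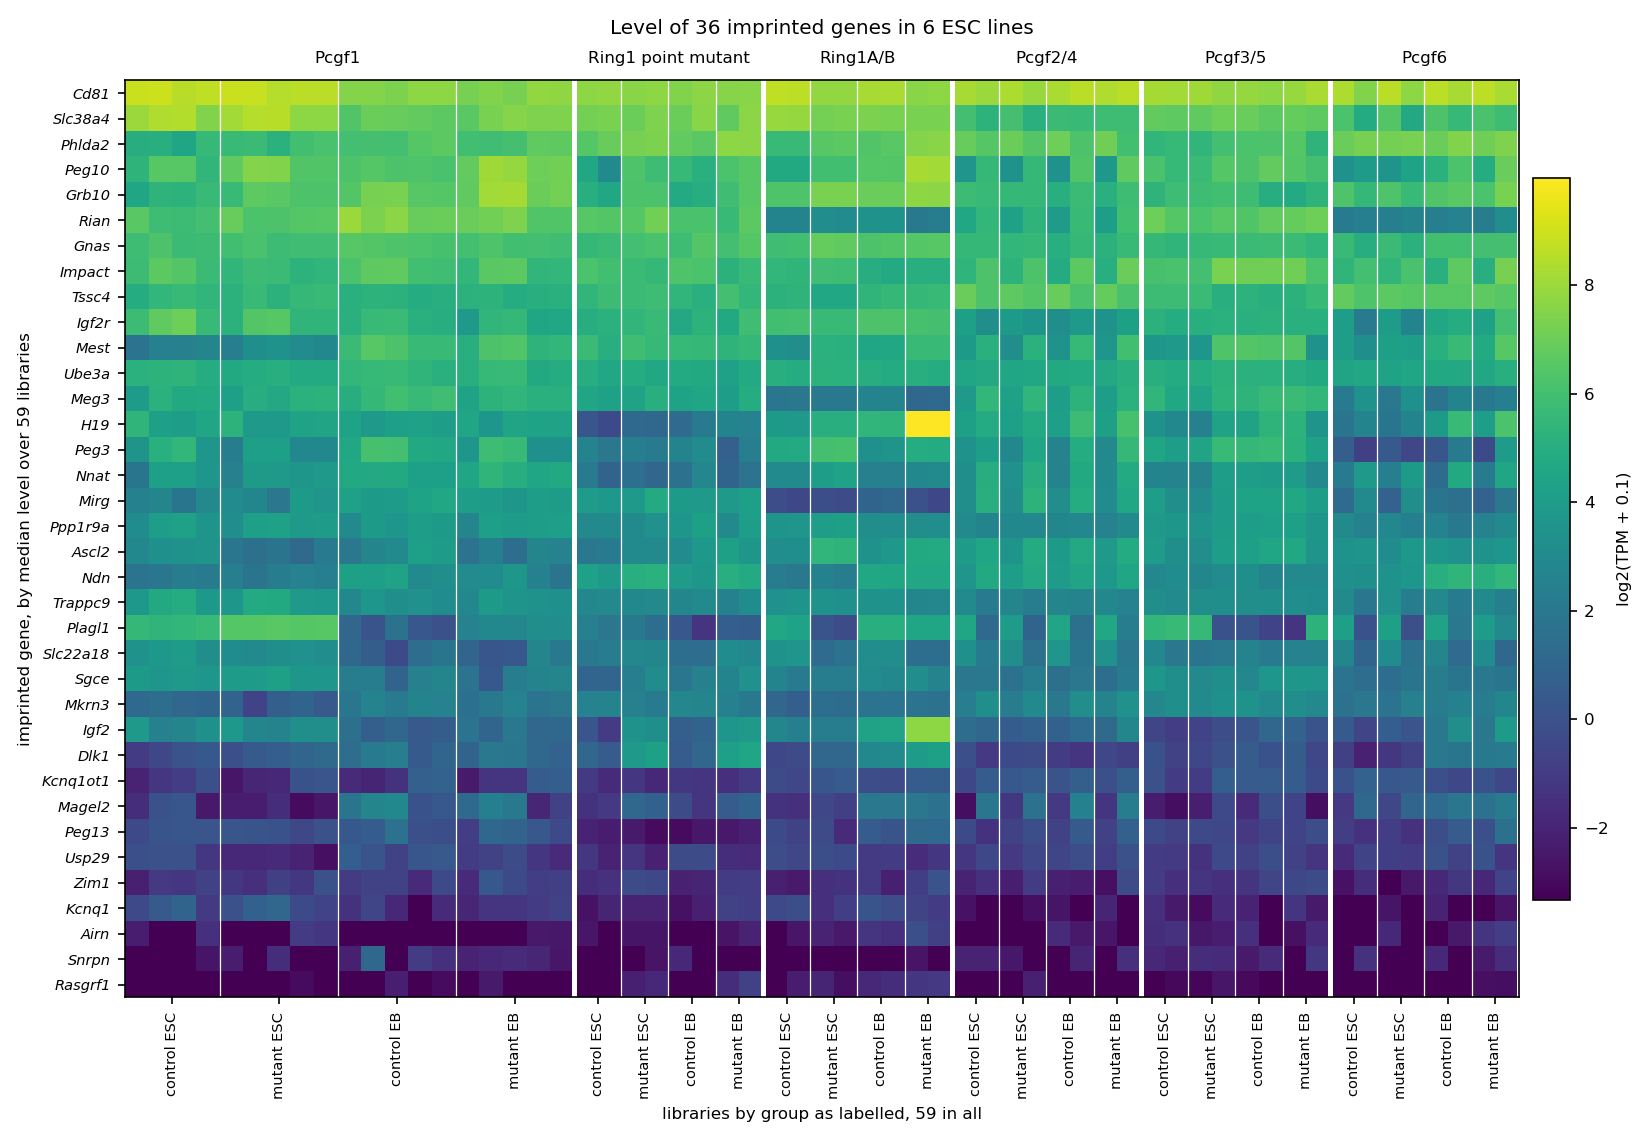
Level of each imprinted gene (rows, by median level) in each of 59 libraries (columns, by line and by group as labelled), as log2(TPM + 0.1) in colour. *Rian* and *Meg3* were lower in every library of the *Ring1A/B* and *Pcgf6* lines than in any of the *Pcgf1* line, and the brightest cells are the pair of *Ring1A/B* libraries labelled mutant EB, at *H19*.

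The RefSeq promoters (build GRCm38.p6) of 5 genes that the results on *Pcgf1* describe are shown, because PCGF1-PRC1 is brought to CpG islands by KDM2B and because ZFP57, which keeps imprints, binds the methylated form of TGCCGC. Of the 36 genes, 29 had a promoter in the table, and *Kcnq1*, *Impact*, *Sgce*, *Peg10*, *Trappc9*, *Peg13* and *H19* had none. Each run is the 250 bases before the start site, and capitals mark TGCCGC on either strand (read as GCGGCA on the other strand). The table holds 3 promoters of *Mest* and 2 of *Grb10*, and 1 of each is printed.
*Plagl1*, chr10:13090582-13090831, + strand: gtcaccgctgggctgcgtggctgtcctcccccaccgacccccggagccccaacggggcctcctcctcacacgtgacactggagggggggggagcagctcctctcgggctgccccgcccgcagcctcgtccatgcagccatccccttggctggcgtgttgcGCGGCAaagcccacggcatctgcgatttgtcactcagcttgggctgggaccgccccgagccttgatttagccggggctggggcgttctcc
*Mest*, chr6:30737800-30738049, + strand: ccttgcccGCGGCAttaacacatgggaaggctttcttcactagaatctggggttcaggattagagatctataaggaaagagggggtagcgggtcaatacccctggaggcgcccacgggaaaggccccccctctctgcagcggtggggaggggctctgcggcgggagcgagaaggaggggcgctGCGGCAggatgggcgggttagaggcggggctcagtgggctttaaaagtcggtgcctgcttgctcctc
*Grb10*, chr11:12037421-12037670, - strand: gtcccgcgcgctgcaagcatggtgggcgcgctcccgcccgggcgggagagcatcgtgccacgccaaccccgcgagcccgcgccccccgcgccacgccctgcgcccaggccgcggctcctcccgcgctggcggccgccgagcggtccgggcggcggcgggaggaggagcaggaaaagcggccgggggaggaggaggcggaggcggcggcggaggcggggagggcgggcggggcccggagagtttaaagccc
*Peg3*, chr7:6730420-6730669, - strand: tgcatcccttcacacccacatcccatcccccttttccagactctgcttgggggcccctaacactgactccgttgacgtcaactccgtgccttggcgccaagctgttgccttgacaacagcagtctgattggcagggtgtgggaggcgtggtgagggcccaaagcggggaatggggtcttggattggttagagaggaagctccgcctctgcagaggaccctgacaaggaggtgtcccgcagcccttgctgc
*Usp29*, chr7:6730333-6730582, + strand: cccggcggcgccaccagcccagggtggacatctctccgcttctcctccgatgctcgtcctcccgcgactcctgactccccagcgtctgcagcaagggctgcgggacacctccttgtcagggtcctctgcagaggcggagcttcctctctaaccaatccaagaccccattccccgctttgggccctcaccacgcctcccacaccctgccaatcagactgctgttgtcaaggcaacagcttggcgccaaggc

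The *Mest* window held TGCCGC at 2 places and the *Plagl1* window at 1, and those of *Grb10*, *Peg3* and *Usp29* held none. Over all members, 5 of 45 promoters held it (11.1%), against 8.68% of all 32851 promoters in the table. These 5 belong to 4 genes, since a pair of *Mest* windows that overlap almost fully is counted as separate promoters. CpG dinucleotides numbered 19 in the *Plagl1* window, 14 in that of *Mest*, 40 in that of *Grb10*, 8 in that of *Peg3* and 14 in that of *Usp29*. The median was 10 over the 45 member promoters, and 6 over all promoters. In RefSeq, *Peg3* and *Usp29* start 164 bases apart on opposite strands and their windows share 163 bases. In the mm9 annotation their starts lie 230739 bases apart, so the *Usp29* model behind the TPM may not begin in the printed window. The other *Mest* promoters held the motif at 0 and 2 places, with 7 and 14 CpG, and the other *Grb10* promoter held it at 0 places, with 8 CpG. *Peg10* (chr6:4697306-4710514) and *Sgce* (chr6:4624350-4697204) start 102 bases apart on opposite strands in the mm9 annotation.

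*Pcgf1* itself was lower in every library with 4-OHT. It was 10.7 to 13.6 TPM in the 4 control ESC libraries and 0.627 to 2.77 in the 5 *Pcgf1*-KO ESC libraries. In EBs it was 7.30 to 16.6 TPM in the 5 controls and 0.978 to 2.47 in the 5 KO libraries. *Pou5f1*, *Sox2* and *Nanog*, which define pluripotent cells, had summed levels of 2438 to 2988 TPM in control ESCs, and of 1672 to 2327 TPM in control EBs. The sum of 14 feeder fibroblast markers was 266 to 318 TPM in the control ESC libraries, against 35.7 to 78.6 TPM in control EBs. It was 222 to 269 TPM in *Pcgf1*-KO ESCs and 18.6 to 41.3 TPM in *Pcgf1*-KO EBs. Many imprinted genes are also active in fibroblasts, and the part of the feeders in the differences between stages and genotypes was not tested.

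In the *Pcgf1* line, imprinted genes moved in both directions when control ESCs formed EBs. *Mest* rose most and *Plagl1* fell most, and 20 of the 36 genes were called (12 higher and 8 lower in EBs) by limma on log2(TPM + 0.1) at an adjusted p under 0.05. Over all genes, 5138 of 20594 genes (24.9%) were called. The median log2 fold change was 0.35 over the 36 genes and -0.0045 over all genes. Of the 20, 10 were among the 19 paternally and 10 among the 17 maternally expressed genes, with 6 higher and 4 lower in each.

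*Plagl1* (chr10:12810497-12851500, mm9), a paternally expressed zinc finger factor that restrains proliferation, was 47.0, 41.2, 44.1 and 49.0 TPM in the 4 control ESC libraries and 1.97, 0.992, 3.13, 1.13 and 0.897 TPM in the 5 control EB libraries. Every EB library was below every ESC library (log2 fold change -4.87 ± 0.26 (SE), adjusted p = 1.1e-09). *Mest* (chr6:30673547-30698457), a paternally expressed growth gene of mesoderm, was 3.22, 5.50, 5.52 and 6.49 TPM in control ESCs and 54.2, 90.8, 76.8, 50.6 and 50.5 TPM in control EBs. Its ranges did not overlap either, and the ratio of the means was 12.5 (log2 fold change 3.61 ± 0.30 (SE), adjusted p = 1.3e-07). *Grb10*, a growth-restraining adaptor of insulin signalling that is maternally expressed in most tissues, rose from 22.7, 40.1, 38.3 and 50.3 TPM to 84.9, 154, 156, 90.6 and 88.7 TPM (log2 fold change 1.60 ± 0.32 (SE), adjusted p = 0.0012). *Slc38a4* fell from 249, 333, 345 and 175 TPM to 82.5, 126, 119, 109 and 99.9 TPM, again without overlap (log2 fold change -1.32 ± 0.24 (SE), adjusted p = 5.0e-04).

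At the *Dlk1-Meg3* cluster on chromosome 12, 4 of 4 genes were higher in control EBs. *Dlk1*, a paternally expressed Notch-like ligand, was 0.418, 0.618, 0.944 and 1.18 TPM in control ESCs and 2.64, 4.58, 5.07, 1.24 and 1.90 TPM in control EBs (log2 fold change 1.75 ± 0.44 (SE), adjusted p = 0.0063). The noncoding RNAs of the maternal copy stood well above it. *Rian*, which hosts small nucleolar RNAs, was 96.4, 57.1, 54.7 and 63.7 TPM in ESCs, against 252, 162, 199, 119.7 and 126 TPM in EBs (log2 fold change 1.32 ± 0.26 (SE), adjusted p = 8.6e-04). *Mirg*, a microRNA host, was 5.68, 6.54, 3.496 and 7.62 TPM in ESCs, against 19.7, 15.2, 16.1, 20.5 and 24.4 TPM in EBs (log2 fold change 1.73 ± 0.31 (SE), adjusted p = 4.4e-04). *Meg3* was 16.4, 35.5, 27.2 and 28.2 TPM and 30.8, 47.0, 60.6, 51.9 and 59.4 TPM (log2 fold change 0.91 ± 0.28 (SE), adjusted p = 0.021), with the highest ESC library above the lowest EB library. The *Meg3* call was lost without control ESC replicate 1 (adjusted p = 0.087) or control EB replicate 3 (adjusted p = 0.053).

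At the *H19-Igf2* cluster the paired genes did not move alike. *Igf2*, the paternally expressed growth factor, was 14.7, 5.41, 6.57 and 10.1 TPM in control ESCs and 2.86, 1.51, 2.01, 1.24 and 1.44 TPM in control EBs, without overlap (log2 fold change -2.24 ± 0.34 (SE), adjusted p = 9.8e-05). *H19*, the maternal noncoding RNA beside it, was 41.7, 17.8, 17.1 and 22.2 TPM and 20.5, 13.9, 18.3, 19.8 and 17.6 TPM, and was not called (adjusted p = 0.40).

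At the *Kcnq1* cluster, *Phlda2*, a placental growth inhibitor, rose from 30.9, 32.8, 23.1 and 48.7 TPM to 63.7, 66.9, 63.8, 89.1 and 97.3 TPM (log2 fold change 1.19 ± 0.24 (SE), adjusted p = 0.0013). Its neighbour *Slc22a18*, an organic cation transporter, fell from 10.9, 13.3, 15.4 and 9.52 TPM to 2.13, 1.43, 0.697, 2.63 and 3.46 TPM (log2 fold change -2.66 ± 0.47 (SE), adjusted p = 3.7e-04). *Cd81* fell from 481, 492, 369 and 421 TPM to 181, 179.9, 161, 211 and 214 TPM (log2 fold change -1.22 ± 0.15 (SE), adjusted p = 1.0e-05). Each of these 3 changes separated the groups fully. *Kcnq1*, a potassium channel gene, was low, at 0.664, 1.26, 1.87 and 0.375 TPM in ESCs, against 0.285, 0.574, 0.187, 0 and 0.201 TPM in EBs (log2 fold change -1.75 ± 0.53 (SE), adjusted p = 0.021), and its call was lost without control ESC replicate 2, control ESC replicate 3 or control EB replicate 4 (adjusted p = 0.066, 0.085 and 0.054). *Ascl2*, *Tssc4* and *Kcnq1ot1* were not called.

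At the Prader-Willi/Angelman cluster on chromosome 7, the paternally expressed genes were higher in EBs. *Ndn*, a growth suppressor of neurons, was 3.39, 3.60, 4.81 and 4.47 TPM in control ESCs and 18.5, 17.9, 20.3, 8.07 and 9.40 TPM in control EBs (log2 fold change 1.76 ± 0.35 (SE), adjusted p = 0.0010). *Mkrn3*, a ring finger gene, was 2.19, 2.67, 2.01 and 1.82 TPM and 3.62, 6.15, 4.45, 6.26 and 5.86 TPM (log2 fold change 1.22 ± 0.33 (SE), adjusted p = 0.0093). *Magel2*, a ubiquitin ligase partner, was 0.240, 0.911, 1.10 and 0.0870 TPM and 3.34, 6.59, 7.30, 0.919 and 1.18 TPM (log2 fold change 2.48 ± 0.84 (SE), adjusted p = 0.037). For *Ndn* and *Mkrn3* the groups were fully apart, and for *Magel2* they overlapped. The *Magel2* call was lost without control ESC replicates 1 or 4, or control EB replicates 1, 2 or 3 (adjusted p = 0.067 to 0.13). *Snrpn* was 0, 0, 0 and 0.0682 TPM and 0.121, 2.19, 0, 0.400 and 0.256 TPM (log2 fold change 1.78 ± 0.62 (SE), adjusted p = 0.044), a call that was lost when any of 13 of the 19 libraries was left out (adjusted p = 0.050 to 0.097; without control EB replicate 2, the highest library, 0.090). The *Snrpn* call was also lost under a processing setting with all libraries (adjusted p = 0.108). Its log2 fold change was as low as 0.51 among the alternatives.

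Among the remaining clusters, *Sgce*, a sarcoglycan gene, fell from 15.1, 12.7, 13.9 and 12.4 TPM to 4.76, 4.64, 1.81, 5.46 and 6.41 TPM (log2 fold change -1.64 ± 0.41 (SE), adjusted p = 0.0059). *Peg10*, a retrotransposon-derived placental gene that starts 102 bases from it on the other strand, was 39.7, 90.7, 91.6 and 43.4 TPM and 76.4, 89.8, 76.5, 79.3 and 71.2 TPM and was not called (adjusted p = 0.48). *Gnas*, which encodes the stimulatory G protein alpha subunit, was 57.2, 75.3, 54.1 and 55.6 TPM and 92.3, 85.7, 79.8, 72.9 and 69.8 TPM (log2 fold change 0.41 ± 0.13 (SE), adjusted p = 0.024). *Trappc9*, a trafficking gene that contains *Peg13* in an intron, was 13.5, 27.3, 30.0 and 13.7 TPM and 7.17, 12.6, 9.71, 10.4 and 8.86 TPM (log2 fold change -1.04 ± 0.30 (SE), adjusted p = 0.017). The *Gnas* groups overlapped through control ESC replicate 2 (75.3 TPM). The *Gnas* call was lost without control ESC replicates 1, 3 or 4, or control EB replicates 1 or 2 (adjusted p = 0.055 to 0.081), and the *Trappc9* call without control ESC replicates 2 or 3 (adjusted p = 0.068 and 0.073).

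Same-numbered libraries of the *Pcgf1* line deviated together from their group means, so the fit was also made with the replicate number as a block. With this replicate block, 24 of the 36 genes were called (15 higher and 9 lower in control EBs), against 43.9% of all genes. The block added *Igf2r*, *Ube3a*, *Peg3* and *Nnat*. *Peg3*, a zinc finger gene of maternal behaviour and growth, differed widely between replicate numbers, at 11.6, 35.1, 43.9 and 12.5 TPM in control ESCs and 24.4, 67.7, 63.2, 26.8 and 24.2 TPM in control EBs. It was higher in EBs in 4 of 4 same-numbered pairs (log2 fold change 0.75 ± 0.61 (SE), adjusted p = 0.41, and 7.8e-04 with the block). *Igf2r*, the receptor that clears IGF2, was 54.8, 105, 132 and 50.98 TPM and 35.1, 51.03, 52.9, 34.5 and 31.2 TPM (log2 fold change -0.98 ± 0.38 (SE), adjusted p = 0.069, and 1.5e-04 with the block). *Nnat*, a neuronal proteolipid gene, was 3.51, 19.1, 18.3 and 12.6 TPM and 27.2, 26.0, 26.7, 17.8 and 18.1 TPM (adjusted p = 0.075, and 0.015 with the block). *Ube3a*, the Angelman ubiquitin ligase, was 36.4, 38.1, 40.4 and 30.3 TPM and 44.99, 47.1, 49.4, 41.2 and 35.2 TPM (adjusted p = 0.32, and 0.028 with the block).

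**Figure D2:**
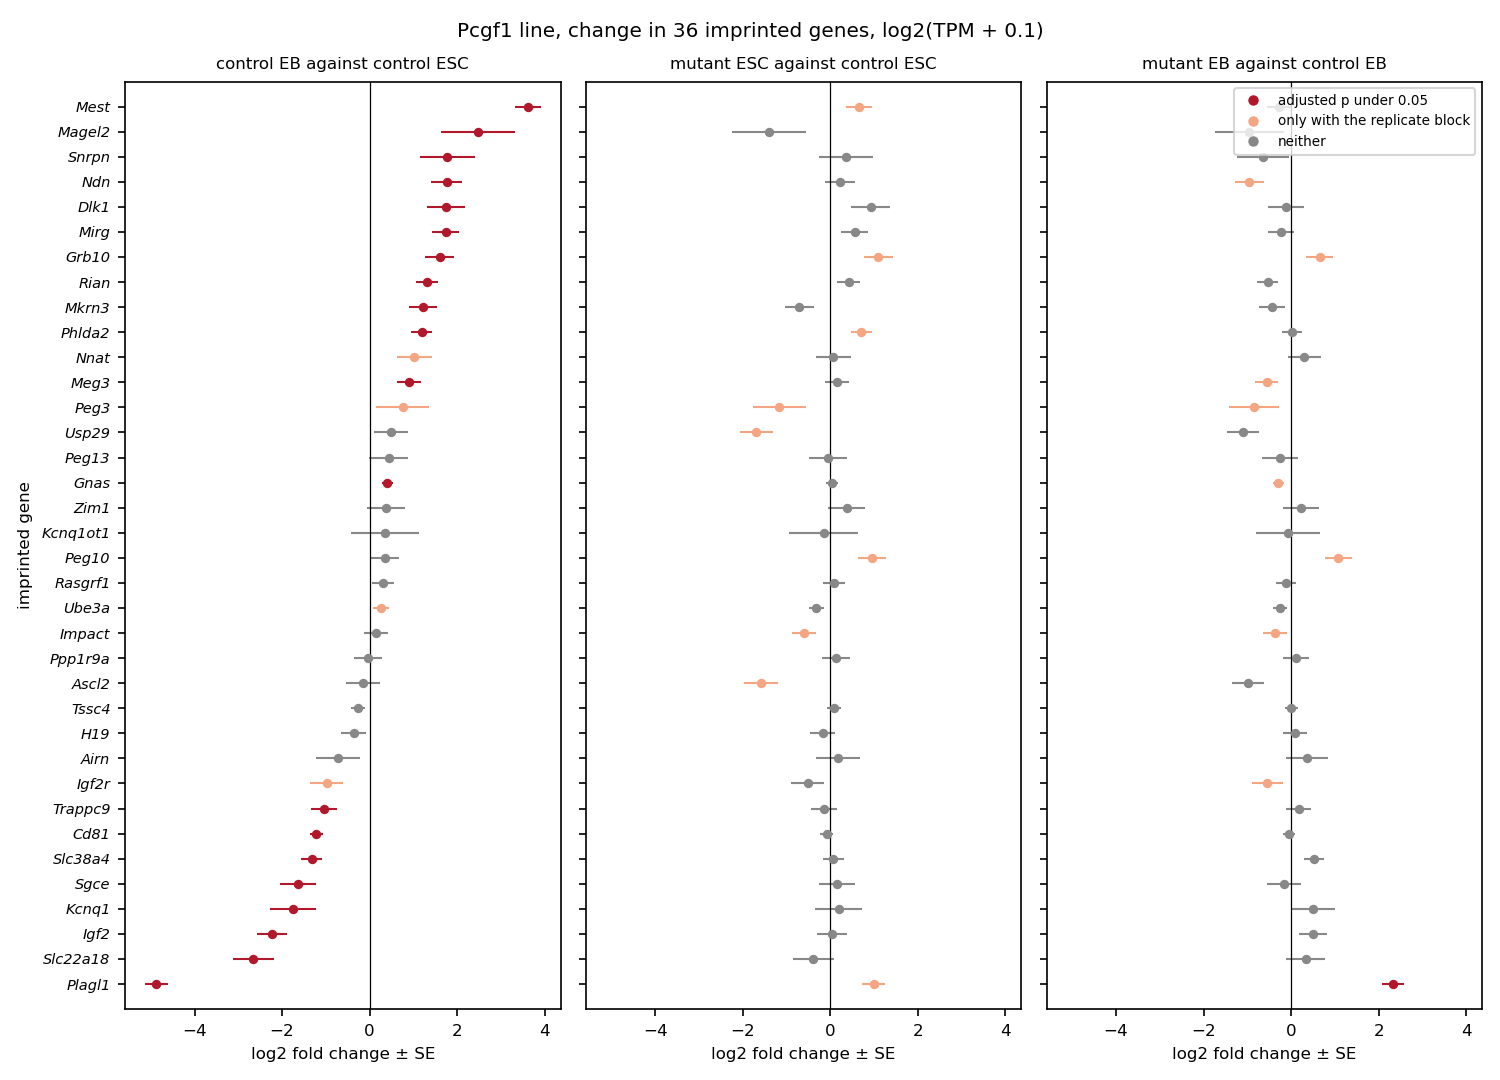
log2 fold change (± SE) of the 36 imprinted genes in the *Pcgf1* line for control EBs against control ESCs, *Pcgf1*-KO against control ESCs and *Pcgf1*-KO against control EBs. Dark red marks an adjusted p under 0.05 and light red the same only with the replicate block: 20, 0 and 1 genes are dark red, and *Plagl1* is the one in EBs.

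Mean levels of *Plagl1*, *Grb10* and *Peg10* were higher in *Pcgf1*-KO than in control ESCs, and those of *Usp29*, *Peg3* and *Ascl2* were lower. These changes passed the test with the replicate block but not in the main fit. Without the block 0 of the 36 genes were called by limma, against 132 of 20594 genes (0.641%) in the whole fit, and 10 of the 36 had an unadjusted p under 0.05, against 8.63% of all genes. With the replicate block 9 genes were called, 5 higher and 4 lower, against 5.31% of all genes. Those higher were *Grb10*, *Plagl1*, *Peg10*, *Phlda2* and *Mest*, and those lower were *Ascl2*, *Usp29*, *Peg3* and *Impact*.

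*Plagl1* did not overlap between the groups, with 87.6, 88.9, 94.3, 87.9 and 90.4 TPM in the 5 *Pcgf1*-KO ESC libraries, a mean of 89.8 ± 2.74 (SD, n = 5) against 45.3 ± 3.41 (SD, n = 4) in control ESCs. Its log2 fold change was 0.99 ± 0.26 (SE), with an adjusted p of 0.11 and of 0.035 with the block. *Peg10* was 105, 184, 172, 83.5 and 83.5 TPM in *Pcgf1*-KO ESCs (log2 fold change 0.94 ± 0.32 (SE), adjusted p = 0.28, and 0.0046 with the block). *Sgce*, across the shared start region, was 15.8, 16.03, 19.005, 12.9 and 12.5 TPM (log2 fold change 0.16 ± 0.41 (SE), adjusted p = 1.0, and 0.97 with the block). Both genes were higher in 4 of 4 same-numbered pairs, and the groups overlapped for both.

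*Grb10* was 50.02, 103, 95.1, 77.3 and 76.5 TPM in *Pcgf1*-KO ESCs (log2 fold change 1.10 ± 0.32 (SE), adjusted p = 0.17, and 0.0027 with the block). *Phlda2* was 50.8, 54.0, 35.7, 62.6 and 72.3 TPM (log2 fold change 0.71 ± 0.24 (SE), adjusted p = 0.28, and 0.0046 with the block). *Mest* was 4.99, 9.66, 11.1, 8.49 and 7.33 TPM (log2 fold change 0.67 ± 0.30 (SE), adjusted p = 0.52, and 0.023 with the block). *Grb10*, *Phlda2* and *Mest* are also among the genes higher in control EBs than in control ESCs. *Plagl1*, in contrast, was lower in control EBs than in control ESCs, and higher in *Pcgf1*-KO ESCs with the block.

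With the block, *Peg3* and *Usp29* were both lower without *Pcgf1* in ESCs. *Usp29*, a deubiquitinase gene, was 0.842, 0.882, 0.884 and 0.326 TPM in control and 0.189, 0.180, 0.213, 0.137 and 0.0467 TPM in *Pcgf1*-KO ESCs, without overlap (log2 fold change -1.69 ± 0.39 (SE), adjusted p = 0.054, and 0.028 with the block). *Peg3* was 4.88, 18.3, 18.1, 7.28 and 7.18 TPM in *Pcgf1*-KO ESCs and lower in 4 of 4 pairs (log2 fold change -1.16 ± 0.61 (SE), adjusted p = 0.65, and 0.0069 with the block). *Ascl2*, a bHLH factor of the trophoblast lineage, was 7.35, 10.01, 11.3 and 11.7 TPM in control and 3.62, 2.87, 3.40, 2.34 and 4.36 TPM in *Pcgf1*-KO ESCs, also without overlap (log2 fold change -1.58 ± 0.39 (SE), adjusted p = 0.076, and 0.0077 with the block). *Impact*, an inhibitor of the GCN2 kinase pathway, was 55.2, 97.5, 86.5 and 52.6 TPM in control and 43.0, 56.3, 53.8, 38.1 and 43.8 TPM in *Pcgf1*-KO ESCs (log2 fold change -0.60 ± 0.28 (SE), adjusted p = 0.57, and 0.019 with the block).

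In *Pcgf1*-KO EBs *Plagl1* stayed above the control level, and it was the 1 gene of the 36 that was called, against 402 of 20594 genes (1.95%) in the whole fit. Its level was 5.91, 7.27, 7.15, 9.51 and 8.995 TPM in the 5 *Pcgf1*-KO EB libraries, each above the highest control EB library (3.13 TPM) and below every control ESC library. The ratio of the means was 4.79 (log2 fold change 2.32 ± 0.25 (SE), adjusted p = 1.7e-04). Within 3 library series, inferred here from identifiers in the file headers with neighbouring ones joined, the log2 difference was 1.54, 1.96 and 3.08. The headers do not name such series. *Plagl1* was high in ESCs and low in EBs in both genotypes, and markers of naive pluripotency moved with it. The sum of 6 such markers was 109 to 232 TPM in control EBs, 199 to 558 TPM in *Pcgf1*-KO EBs, 1756 to 3319 TPM in ESCs without 4-OHT, and 1846 to 3704 TPM in ESCs with it. The 5 markers of formative cells, the state that follows the naive one, summed to 1573, 3177, 2953, 1117 and 1147 TPM in control EBs, against 748, 1957, 1908, 407 and 408 TPM in *Pcgf1*-KO EBs. The 6 primitive endoderm markers summed to 12.9, 15.2, 18.5, 7.04 and 9.29 TPM in control EBs, against 9.01, 17.2, 22.3, 23.4 and 24.3 TPM in *Pcgf1*-KO EBs, and were higher in the KO library in 4 of 5 same-numbered pairs. The 6 trophoblast markers summed to 3.82, 3.71, 5.83, 3.05 and 2.38 TPM in control EBs, against 3.03, 3.66, 4.88, 5.53 and 5.81 TPM in *Pcgf1*-KO EBs. The formative sum was lower in each *Pcgf1*-KO EB library than in its same-numbered control, and the trophoblast sum was higher in replicates 4 and 5 only. The part of these markers in the *Plagl1* difference was not tested.

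With the replicate block 9 genes were called in EBs, 3 higher (*Plagl1*, *Peg10* and *Grb10*) and 6 lower (*Ndn*, *Peg3*, *Meg3*, *Igf2r*, *Impact* and *Gnas*), against 10.4% of all genes. *Peg10* was 108, 271, 235, 132 and 139 TPM in *Pcgf1*-KO EBs, each library above every control EB library (log2 fold change 1.08 ± 0.30 (SE), adjusted p = 0.076, and 7.4e-04 with the block). *Sgce* was 3.28, 1.19, 4.82, 6.17 and 6.58 TPM (log2 fold change -0.17 ± 0.38 (SE), adjusted p = 0.99, and 0.85 with the block). *Grb10* was 105, 281, 288, 129 and 145 TPM and higher in 5 of 5 pairs (log2 fold change 0.65 ± 0.30 (SE), adjusted p = 0.40, and 0.022 with the block). *Peg10*, *Grb10* and *Plagl1* were thus higher in both stages under the block.

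Among the genes lower in *Pcgf1*-KO EBs, *Ndn* was 8.39, 8.62, 13.3, 5.59 and 3.35 TPM (log2 fold change -0.95 ± 0.33 (SE), adjusted p = 0.18, and 0.040 with the block). *Peg3* was 12.5, 56.9, 50.6, 10.04 and 10.01 TPM, lower in 5 of 5 pairs (log2 fold change -0.84 ± 0.57 (SE), adjusted p = 0.68, and 0.0057 with the block). *Meg3* was 19.9, 38.3, 42.7, 34.6 and 34.9 TPM (log2 fold change -0.55 ± 0.26 (SE), adjusted p = 0.41, and 0.0071 with the block). *Peg3* and *Impact* were lower in both stages under the block. *Impact* was 44.8, 95.1, 97.3, 43.7 and 45.02 TPM against 74.4, 101, 106, 61.4 and 59.5 TPM in control EBs (adjusted p = 0.70, and 0.045 with the block). *Igf2r* was 13.8, 43.1, 46.0, 22.9 and 24.5 TPM (adjusted p = 0.66, and 0.018 with the block). *Gnas* was 63.8, 78.3, 61.8, 63.0 and 59.8 TPM (adjusted p = 0.31, and 0.013 with the block).

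Of the remaining members, *Tssc4* (29.7 to 50.8 TPM over the 19 libraries), *Ppp1r9a* (6.43 to 19.1 TPM), *Peg13* (0.434 to 3.12 TPM), *Kcnq1ot1* (0.0758 to 1.69 TPM), *Zim1* (0.128 to 1.14 TPM), *Airn* (0 to 0.415 TPM) and *Rasgrf1* (0 to 0.120 TPM) were called in none of these 3 contrasts of the *Pcgf1* line. *Usp29* and *Ascl2* were not called in EBs, with or without the block. *Usp29* was 1.496, 0.978, 0.515, 1.08 and 1.21 TPM in control and 0.422, 0.520, 0.742, 0.331 and 0.215 TPM in *Pcgf1*-KO EBs (log2 fold change -1.09 ± 0.36 (SE), adjusted p = 0.16, and 0.066 with the block). *Ascl2* was 3.75, 6.47, 8.09, 18.2 and 15.7 TPM in control and 3.29, 5.24, 2.66, 6.57 and 5.83 TPM in *Pcgf1*-KO EBs (log2 fold change -0.98 ± 0.37 (SE), adjusted p = 0.23, and 0.050 with the block). They were lower in 4 of 5 and 5 of 5 same-numbered pairs, respectively.

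**Figure D3:**
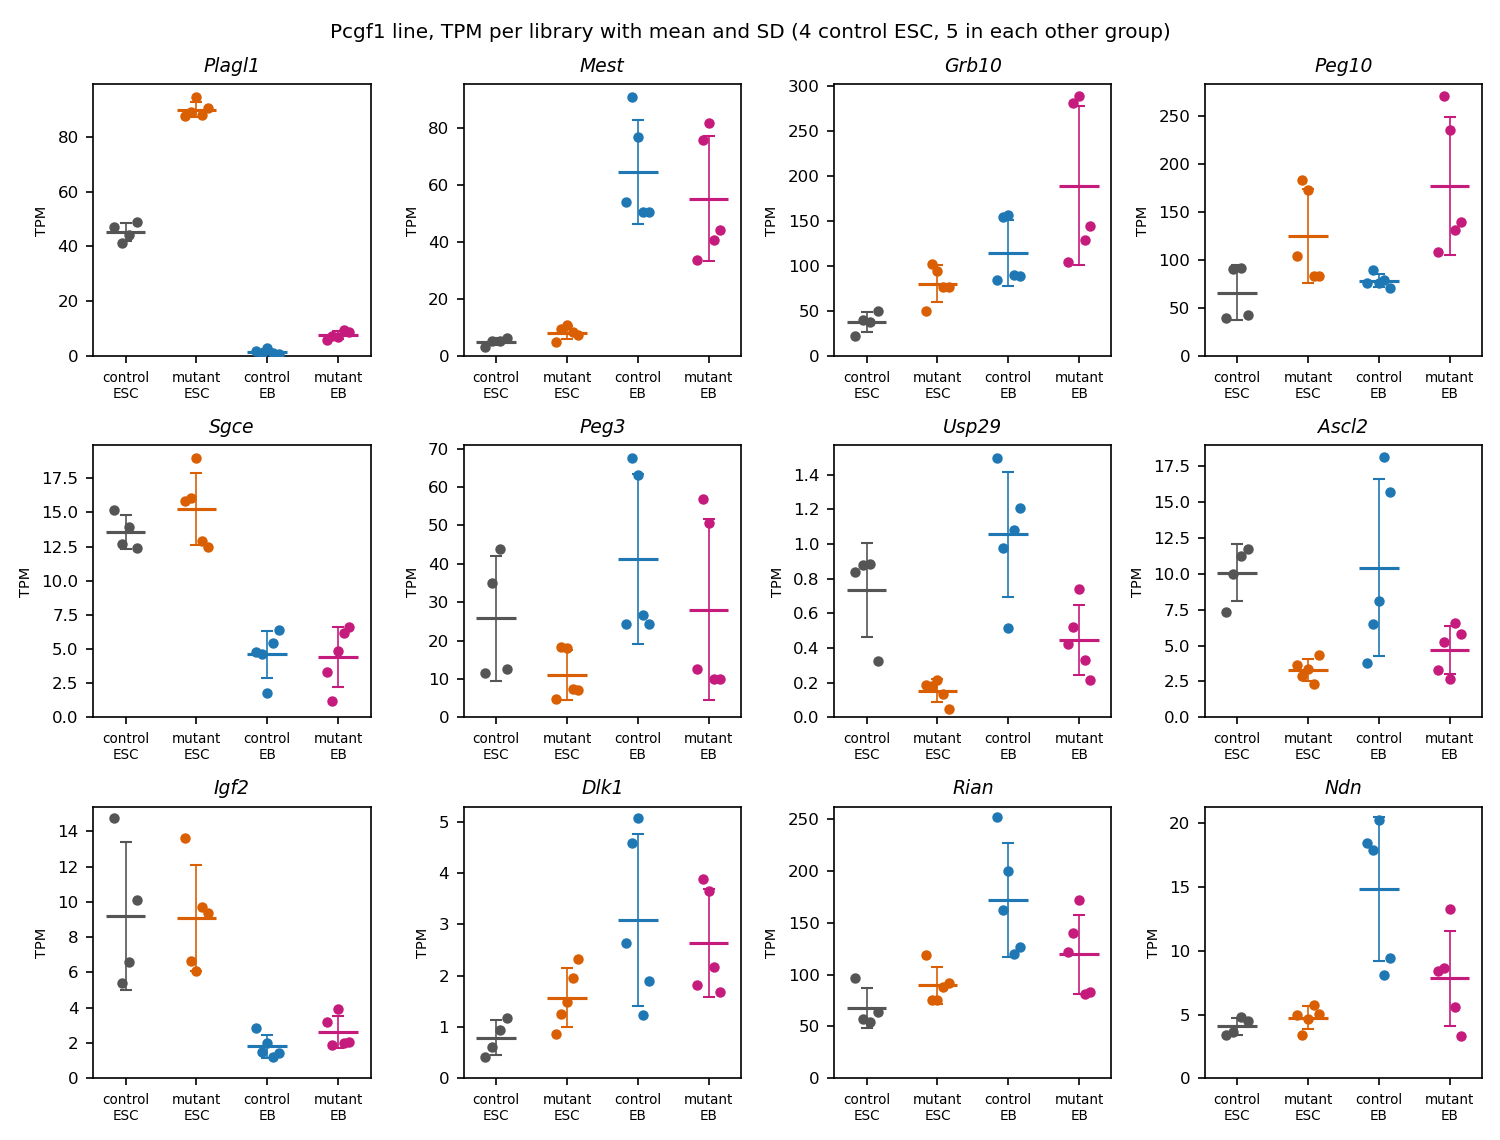
TPM of 12 imprinted genes in each library of the *Pcgf1* line (points), with the mean (bar) and SD (whiskers) of 4 control ESC libraries and 5 libraries in each other group. *Plagl1* was higher without *Pcgf1* in ESCs and in EBs, *Peg10* and *Sgce* share a start region and differ in pattern, and *Usp29* was lower without *Pcgf1* in ESCs.

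ESCs without *Pcgf1* also changed imprinted genes on forming EBs. *Pcgf1*-KO EBs against *Pcgf1*-KO ESCs gave 13 called genes, 7 higher and 6 lower, against 18.3% of all genes. With the replicate block it was 22 genes, 12 higher and 10 lower, against 36.8% of all genes. *Plagl1* fell here too (log2 fold change -3.53 ± 0.25 (SE), adjusted p = 2.4e-08) and *Mest* rose to 33.8, 75.9, 81.6, 40.6 and 44.4 TPM (log2 fold change 2.68 ± 0.28 (SE), adjusted p = 2.1e-06). *Magel2* rose from 0.104, 0.0992, 0.235, 0.0324 and 0.0773 TPM to 2.20, 5.15, 3.98, 0.168 and 0.513 TPM (log2 fold change 2.93 ± 0.79 (SE), adjusted p = 0.014), with overlap between the groups, and the call was lost with a pseudocount of 1 (adjusted p = 0.052). *Mkrn3* rose from 1.81, 0.545, 1.51, 1.84 and 1.20 TPM to 2.75, 4.02, 5.80, 3.24 and 3.76 TPM (ratio of the means 2.83, adjusted p = 0.0018). *Igf2*, *Slc22a18*, *Sgce*, *Cd81* and *Slc38a4* fell, as they did in the control comparison.

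*Igf2* was 13.6, 6.66, 6.08, 9.71 and 9.39 TPM in *Pcgf1*-KO ESCs and 3.19, 1.89, 3.93, 1.99 and 2.04 TPM in *Pcgf1*-KO EBs. *Slc22a18* was 8.82, 7.96, 9.77, 10.3 and 9.08 TPM and 1.89, 1.09, 1.17, 6.51 and 4.07 TPM, and *Cd81* was 489, 457, 358, 386 and 393 TPM and 154, 178, 154, 223 and 215 TPM. *Slc38a4* was 283, 357, 379, 209 and 208 TPM and 96.2, 156, 187, 170.3 and 168 TPM. None of these 4 pairs of groups overlapped. *Nnat* rose from 5.46, 14.9, 14.4, 12.9 and 14.4 TPM to 23.4, 40.9, 30.6, 22.2 and 26.9 TPM (adjusted p = 0.026), and the call was lost without *Pcgf1*-KO ESC replicate 1 or *Pcgf1*-KO EB replicates 2 or 3 (adjusted p = 0.054 to 0.076). *Mirg* rose from 8.42, 6.76, 3.80, 15.1 and 12.1 TPM to 17.5, 16.4, 13.2, 17.4 and 16.4 TPM (adjusted p = 0.030), and *Usp29* was called at adjusted p = 0.047. These last 2 calls were lost under 7 and 15 of the 19 single omissions (adjusted p = 0.051 to 0.080 and 0.053 to 0.13). For *Mirg* these were *Pcgf1*-KO ESC replicates 1, 2 and 3 and *Pcgf1*-KO EB replicates 1, 2, 4 and 5. The *Usp29* call was also lost under a processing setting with all libraries (adjusted p = 0.109). Its log2 fold change was 1.08, and as low as 0.32 among the alternatives.

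The effect of the deletion in EBs minus that in ESCs, tested as an interaction, was called for 0 of the 36 genes by limma (1 of 20594 genes, 0.00486%), and 4 of the 36 had an unadjusted p under 0.05. The latter count is given without the share of all genes, so it does not show an excess. *Plagl1* had an interaction of 1.33 ± 0.36 (SE) on the log2 scale (adjusted p = 0.36, and 0.082 with the block). With the block *Mest* was called (-0.99 on the log2 scale, adjusted p = 0.045), against 1.62% of all genes. *Mest* was higher without *Pcgf1* in 4 of 4 pairs of ESCs and lower in 4 of 5 pairs of EBs.

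In the point mutant line, where *Ring1B* loses its catalytic activity on top of dead *Ring1A*, the imprinted genes called in mutants against controls all went up. *Rnf2*, the symbol of *Ring1B*, was 54.5 to 85.8 TPM over the 8 libraries, and since the mutation is a point mutation its level does not check the labels. In ESCs 3 of the 36 genes were called, all higher (*Igf2*, *Dlk1* and *Grb10*), against 2.54% of all genes. In EBs 7 were called, all higher, these 3 and *Rasgrf1*, *Slc22a18*, *Ndn* and *Phlda2*, against 4.53% of all genes. The direction was shared by most called genes of the line, of which 475 of 515 were higher in ESCs and 763 of 918 in EBs. Rescaling by the median of ratios lowered the log2 fold changes of all genes by a median of 0.14 in ESCs and 0.13 in EBs.

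*Igf2* was 1.02 and 0.406 TPM in the pair of control ESC libraries and 10.7 and 9.66 TPM in mutant ESCs (log2 fold change 3.77 ± 0.41 (SE), adjusted p = 0.012). In EBs it was 1.51 and 1.76 TPM in controls and 12.6 and 14.6 TPM in mutants (log2 fold change 2.98 ± 0.41 (SE), adjusted p = 0.014). *Dlk1* was 2.00 and 1.30 TPM in control and 14.1 and 18.5 TPM in mutant ESCs (log2 fold change 3.25 ± 0.33 (SE), adjusted p = 0.010). In EBs *Dlk1* was 1.36 and 1.97 TPM and 18.3 and 22.7 TPM (log2 fold change 3.56 ± 0.33 (SE), adjusted p = 0.0090). Mutant and control libraries of *Igf2* and *Dlk1* were far apart at both stages, and mutant ESCs lay above control EBs. *H19*, the neighbour of *Igf2*, was 1.09 and 0.684 TPM in control and 2.23 and 2.18 TPM in mutant ESCs and was not called (adjusted p = 0.16). *Meg3*, *Rian* and *Mirg*, the neighbours of *Dlk1*, were not called either (in ESCs, adjusted p = 0.76, 0.73 and 0.51).

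*Grb10* was 32.7 and 24.8 TPM in control and 75.9 and 73.5 TPM in mutant ESCs (log2 fold change 1.39 ± 0.23 (SE), adjusted p = 0.029). In EBs it was 27.6 and 31.5 TPM and 58.97 and 90.2 TPM (log2 fold change 1.30 ± 0.23 (SE), adjusted p = 0.026). *Phlda2* was 108 and 94.6 TPM in control and 208 and 201 TPM in mutant EBs (log2 fold change 1.02 ± 0.16 (SE), adjusted p = 0.020), and 87.2 and 117 TPM and 150.5 and 164 TPM in ESCs (adjusted p = 0.089). *Slc22a18* was 2.71 and 2.63 TPM in control and 8.83 and 7.29 TPM in mutant EBs (log2 fold change 1.55 ± 0.26 (SE), adjusted p = 0.023). In ESCs it was 3.87 and 4.62 TPM and 6.92 and 6.85 TPM (adjusted p = 0.22). Mutants were above controls for each of these genes at both stages.

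*Ndn* was 16.1 and 13.0 TPM in control and 33.4 and 27.6 TPM in mutant EBs (log2 fold change 1.07 ± 0.21 (SE), adjusted p = 0.039), and 19.6 and 14.3 TPM and 33.2 and 36.2 TPM in ESCs (adjusted p = 0.053). *Rasgrf1*, a Ras exchange factor, was listed at 0 in all 4 control libraries of the line, at 0.127 and 0.186 TPM in mutant ESCs and at 0.236 and 0.514 TPM in mutant EBs (adjusted p = 0.033 in EBs). *Peg10* was 24.1 and 7.87 TPM in control and 79.2 and 57.9 TPM in mutant ESCs but missed the threshold (log2 fold change 2.29 ± 0.47 (SE), adjusted p = 0.054). *Sgce* was 1.94 and 1.92 TPM and 4.96 and 8.37 TPM in the same libraries (log2 fold change 1.69 ± 0.39 (SE), adjusted p = 0.074). *Magel2* was 0.284 and 0.369 TPM in control and 2.06 and 1.67 TPM in mutant ESCs (adjusted p = 0.059). Some other genes that were not called went down. In EBs *Usp29*, *Peg3*, *Impact* and *Mkrn3* were lower in both mutant libraries than in both controls (ratios of the means 0.297, 0.445, 0.573 and 0.713). In ESCs the same held for *Peg13*, *Impact*, *Mkrn3* and *Cd81* (0.527, 0.734, 0.840 and 0.935).

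Markers of extraembryonic cells were also higher in mutants at both stages, while the naive marker sum was lower in mutant ESCs and higher in mutant EBs. The sum of 6 trophoblast markers was 7.36 to 9.53 TPM in control and 43.3 to 74.9 TPM in mutant ESCs, and 5.53 to 10.7 TPM in control and 67.0 to 106 TPM in mutant EBs. For 6 primitive endoderm markers the sum in ESCs was 5.70 to 6.78 TPM in controls, against 25.1 to 25.9 TPM in mutants, and in EBs it was 13.8 to 19.4 TPM in controls, against 34.0 to 37.0 TPM in mutants. For 14 fibroblast markers it was 53.5 to 60.5 TPM in control ESCs, against 99.2 to 128 TPM in mutant ESCs, and 35.2 to 38.5 TPM in control EBs, against 80.5 to 83.3 TPM in mutant EBs. The naive marker sum was 1795 to 2029.9 TPM in control ESCs, against 1499 to 1759.7 TPM in mutant ESCs, and 521 to 616 TPM in control EBs, against 947 to 989 TPM in mutant EBs. The formative marker sum was 63.7 to 103 TPM in control ESCs, against 107 to 114 TPM in mutant ESCs, and 477 to 707 TPM in control EBs, against 158 to 183 TPM in mutant EBs. Their part in the higher imprinted genes was not tested. With 2 libraries per group the calls rest on few libraries: each of the 12 calls of the line, those between stages included, was lost when some single library was left out, and 7 of them under each of the 8 omissions. *Dlk1* was lost under all 8 in ESCs (adjusted p = 0.054 to 0.096) and under 6 in EBs (adjusted p = 0.053 to 0.069). *Igf2* was lost under 7 in ESCs (adjusted p = 0.054 to 0.12) and under 6 in EBs (adjusted p = 0.078 to 0.11). The *Igf2* call in ESCs was kept without control ESC replicate 1, and the EB calls of *Dlk1*, *Igf2*, *Phlda2* and *Slc22a18* without either control ESC library. The EB calls of *Phlda2* and *Slc22a18* were lost under the other 6 omissions (adjusted p = 0.085 to 0.12 and 0.063 to 0.098), and those of *Grb10*, *Ndn* and *Rasgrf1* under all 8. With all libraries, the EB calls of *Ndn* and *Phlda2* were also lost with median-of-ratios scaling (adjusted p = 0.068 and 0.054), and the EB call of *Rasgrf1* with a pseudocount of 1 (adjusted p = 0.056).

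**Figure D4:**
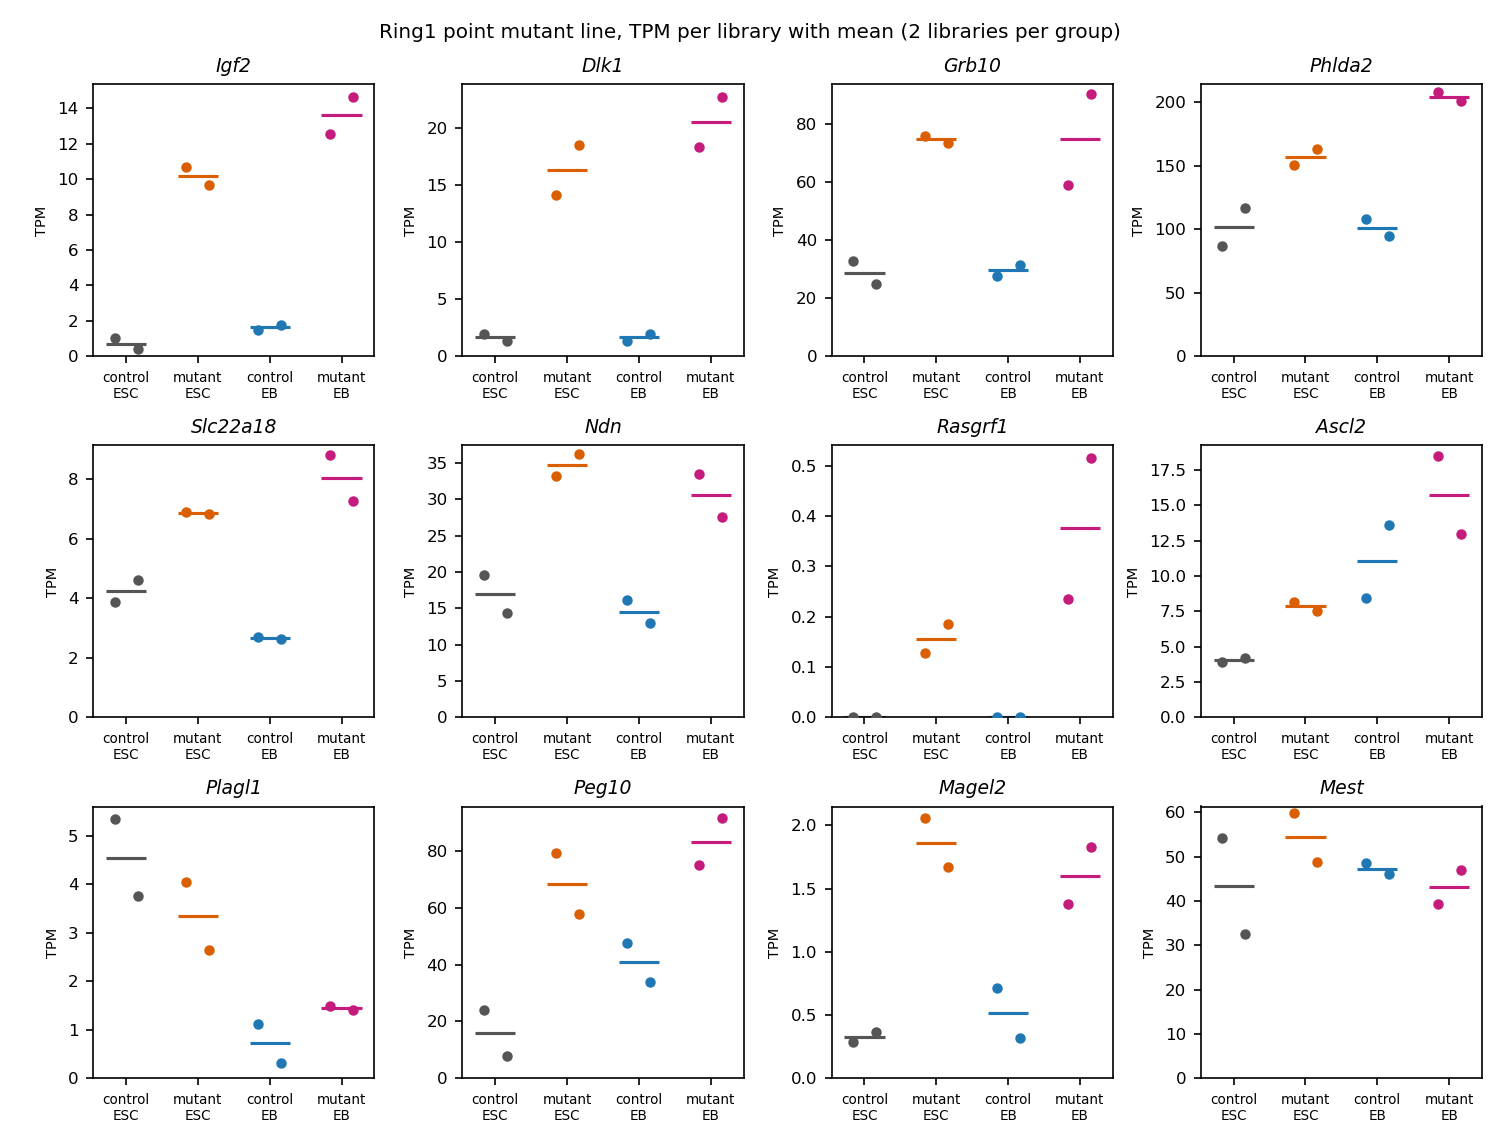
TPM of 12 imprinted genes in each of the 8 libraries of the point mutant line (points) with the mean of each pair (bar). For *Igf2*, *Dlk1*, *Grb10*, *Phlda2*, *Slc22a18* and *Ndn* both mutant libraries were above both control libraries in ESCs and in EBs, and *Mest* was 32.6 to 59.9 TPM over all 8 libraries.

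Control EBs against control ESCs of the point mutant line gave 2 called genes, *Ascl2* higher and *Plagl1* lower, against 4.73% of all genes. *Ascl2* was 3.90 and 4.18 TPM in control ESCs and 8.48 and 13.6 TPM in control EBs (log2 fold change 1.39 ± 0.29 (SE), adjusted p = 0.044), and its call was lost with a pseudocount of 1 (adjusted p = 0.066). *Plagl1* was 5.35 and 3.75 TPM and 1.13 and 0.318 TPM (log2 fold change -2.68 ± 0.55 (SE), adjusted p = 0.040), so its ESC level was well below that of the *Pcgf1* line. Mutant EBs against mutant ESCs gave 0 called genes by limma, with 4 of the 36 at an unadjusted p under 0.05 and 0 called with the replicate block, against 0.133% of all genes called. For the unadjusted count no share of all genes is given, so it is not read as an excess.

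A joint fit of the *Pcgf1* and point mutant lines, made after the values had been seen, tested whether the same contrast differed between them. For control EBs against control ESCs, 6 of the 36 genes differed between the lines, against 3.48% of all genes. *Mest* was 54.3 and 32.6 TPM in control ESCs and 48.5 and 46.1 TPM in control EBs of the point mutant line, where ESCs already held it at the EB level, and the change was smaller than in the *Pcgf1* line by a log2 difference of -3.45 ± 0.50 (SE), adjusted p = 4.8e-04. *Igf2* differed by 3.44 ± 0.59 (SE), adjusted p = 0.0023, *Sgce* by 2.78 ± 0.69 (SE), adjusted p = 0.028, *Plagl1* by 2.19 ± 0.54 (SE), adjusted p = 0.026, *H19* by 2.17 ± 0.51 (SE), adjusted p = 0.020 and *Cd81* by 1.00 ± 0.24 (SE), adjusted p = 0.021, each more positive in the point mutant line. The effect of the mutation on *Igf2* was larger than that of *Pcgf1* deletion by a log2 difference of 3.74 ± 0.59 (SE), adjusted p = 0.0016 in ESCs, the 1 gene called (0.968% of all genes). The lines started from unlike levels. Every control ESC library of the point mutant line held *Igf2* below every control ESC library of the *Pcgf1* line. In mutant ESCs of the point mutant line it lay within the range of those *Pcgf1* line controls. In EBs the effects differed for 3 genes (2.14% of all genes), *Dlk1* (3.69 ± 0.70 (SE), adjusted p = 0.0068), *Igf2* (2.48 ± 0.58 (SE), adjusted p = 0.026) and *Rasgrf1* (2.30 ± 0.42 (SE), adjusted p = 0.0052). The *Rasgrf1* value is no fold, since its controls in the point mutant line are listed at 0: the fitted EB difference in that line was 2.18 ± 0.41 (SE) with the pseudocount of 0.1 and 0.45 with 1.

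In the *Ring1A/B* line the libraries labelled mutant ESC are named control EB in the deposited files and those labelled control EB are named mutant ESC, so contrasts by label do not hold the same libraries as contrasts by name. *Ring1*, the symbol of *Ring1A*, was 0.973 to 3.41 TPM in all 8 libraries. *Rnf2*, the symbol of *Ring1B*, was 78.2 and 77.2 TPM in libraries labelled control ESC, 63.2 and 62.9 in mutant ESC, 95.1 and 83.2 in control EB and 78.1 and 80.5 in mutant EB. These levels do not separate control from mutant libraries. By label, 24 of the 36 genes were called for control EB against control ESC, 23 for mutant ESC against control ESC and 20 for mutant EB against control EB, against 43.2%, 48.8% and 33.3% of all genes.

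The libraries labelled mutant EB, where name and label are the same, held the highest *H19* and *Igf2* of the series. *H19* was 1006 and 989 TPM in them, 15.0 and 13.9 TPM in libraries labelled control ESC, 32.7 and 32.7 in mutant ESC and 43.4 and 41.0 in control EB. *Igf2* was 207 and 208 TPM in mutant EB, 6.86 and 5.34 in control ESC, 4.77 and 4.65 in mutant ESC and 20.5 and 21.7 in control EB. *Peg10* was also highest there, at 300.5 and 276 TPM against 26.6 and 26.9 TPM in control ESC. The endoderm marker sum was 151 TPM in both and the trophoblast marker sum 142 to 145 TPM in these libraries, against 7.10 to 7.596 and 9.97 to 10.1 TPM in those labelled control ESC. The part of such cells in the *H19* and *Igf2* levels was not tested. *Dlk1* was 0.637 and 0.726 TPM in control ESC, 1.97 and 2.02 in mutant ESC, 7.24 and 7.88 in control EB and 15.9 and 18.4 in mutant EB.

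*Plagl1* in this line was 1.00 and 0.718 TPM in the libraries labelled mutant ESC and 33.9 and 32.8 TPM in those labelled control EB. The sum of 6 naive pluripotency markers was 168 to 171 TPM in the former and 1861 to 1905 TPM in the latter. Libraries of the *Pcgf1* line labelled ESC had 1756 to 3319 TPM (controls) and those labelled EB 109 to 232 TPM. Fibroblast markers summed to 536 to 562 TPM in the *Ring1A/B* libraries labelled control EB, and to 42.2 to 44.3 TPM in those labelled mutant ESC. These levels go against the labels of stage in both groups.

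In the *Pcgf2/4*, *Pcgf3/5* and *Pcgf6* lines 0 of the 36 genes were called by limma in any of the 9 labelled contrasts. All genes gave 0 calls in the 6 contrasts of the *Pcgf2/4* and *Pcgf6* lines (0%), and 0.0601%, 0.0401% and 0.0301% in those of the *Pcgf3/5* line. At an unadjusted p under 0.05 there were 0 to 6 of the 36 genes per contrast, counts that are not set against all genes here. With the replicate block there were also 0 called in each. Replicates of a labelled group lay far apart for some genes, so 0 calls do not show that these genes were unchanged. *Plagl1* in the *Pcgf3/5* line was 44.5 and 52.4 TPM in libraries labelled control ESC, 47.7 and 0.913 in mutant ESC, 0.989 and 0.543 in control EB and 0.313 and 38.5 in mutant EB. *Mest* ran the other way library by library, at 13.2 and 14.6 TPM in control ESC, 12.5 and 79.5 in mutant ESC, 86.1 and 78.7 in control EB and 84.6 and 10.9 in mutant EB. In the same order of libraries, the naive marker sum was 1740.3 and 1512 TPM in control ESC, 1599 and 581.6 in mutant ESC, 563 and 353 in control EB and 338 and 1715 in mutant EB. The formative marker sum was 70.1 and 56.7 TPM, 64.7 and 427, 481 and 785 and 676 and 69.8 in these groups. Mutant ESC replicate 2 and mutant EB replicate 2 thus stood apart from the other library of their label in *Plagl1*, *Mest* and both marker sums, and the part of cell state in these spreads was not tested.

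In the *Pcgf2/4* line *Plagl1* was 22.5 and 2.27 TPM in libraries labelled control ESC, 16.2 and 1.88 in mutant ESC, 22.9 and 2.91 in control EB and 23.9 and 4.86 in mutant EB, with replicate 1 above replicate 2 in each group. *Mest* was 15.0 and 34.9 TPM in control ESC, 9.57 and 35.8 in mutant ESC, 10.9 and 48.3 in control EB and 12.5 and 60.8 in mutant EB, with replicate 2 above replicate 1. Over these 4 groups the naive marker sum was 875 and 208 TPM, 807 and 217, 697 and 261 and 772 and 282, and the formative sum 80.0 and 998 TPM, 78.3 and 956, 88.6 and 1048 and 93.9 and 1122. Both sums split by replicate number and not by label, and their part in the spread of *Plagl1* and *Mest* was not tested. In the *Pcgf6* line *Plagl1* was 17.8 and 0.908 TPM in control ESC, 18.6 and 0.844 in mutant ESC, 20.0 and 3.93 in control EB and 16.05 and 7.49 in mutant EB. *Pcgf6* itself was 91.5 and 67.1 TPM in libraries of that line labelled control ESC, 105 and 78.8 in mutant ESC, 34.7 and 35.7 in control EB and 37.0 and 46.3 in mutant EB, low in both groups labelled EB. In that line the naive marker sum was 1140.5 and 292 TPM in control ESC, 1219 and 342 in mutant ESC, 1023 and 526 in control EB and 983 and 632 in mutant EB, and the formative sum was 75.4 and 714 TPM, 79.7 and 739.8, 93.2 and 677 and 93.6 and 773. These sums split by replicate number in every group, against the labels of stage. In the other lines, *Pcgf2* was 39.6 to 55.0 TPM and *Bmi1* 4.12 to 10.03 TPM over the 8 *Pcgf2/4* libraries, and *Pcgf3* was 27.6 to 35.6 TPM and *Pcgf5* 15.6 to 24.7 TPM over the 8 *Pcgf3/5* libraries. A gene's TPM need not fall when floxed exons are deleted, so these levels do not check the labels.

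A comparison between lines does not use the labels of stage and treatment. Over all 59 libraries, each line was set against the mean of the other 5 by limma, and genes were called at an adjusted p under 0.05 and a log2 difference above 1 or below -1. The called genes numbered 8 in the *Pcgf1* line (6 higher, 2 lower), 8 in the point mutant line (3 higher, 5 lower) and 11 in the *Ring1A/B* line (8 higher, 3 lower), against 11.8%, 9.76% and 10.3% of all genes. They numbered 6 in the *Pcgf2/4* line (1 higher, 5 lower), 8 in the *Pcgf3/5* line (6 higher, 2 lower) and 8 in the *Pcgf6* line (all lower), against 11%, 9.28% and 10.5% of all genes. With 1 line for each genotype, genotype, line and sequencing batch cannot be told apart.

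At the *Dlk1-Meg3* cluster, the noncoding RNA *Rian* had its lowest, median and highest level at 54.7, 96.4 and 252 TPM in the 19 libraries of the *Pcgf1* line (log2 difference from the other 5 of 2.04 ± 0.15 (SE), adjusted p = 1.0e-17). It was 4.06, 7.38 and 11.2 TPM in the 8 libraries of the *Ring1A/B* line (log2 difference -2.57 ± 0.20 (SE), adjusted p = 8.0e-16) and 4.44, 5.22 and 9.06 TPM in the 8 of the *Pcgf6* line (-3.01 ± 0.20 (SE), adjusted p = 4.3e-19). The highest *Ring1A/B* and *Pcgf6* libraries lay below the lowest of every other line, at 16.5 to 60.8 TPM in *Pcgf2/4*, 73.6 to 133 in *Pcgf3/5* and 49.4 to 139.6 in the point mutant line. *Meg3* was 2.09, 3.89 and 6.37 TPM in the *Ring1A/B* line (-2.45 ± 0.20 (SE), adjusted p = 7.8e-15), 3.33, 4.83 and 11.2 TPM in the *Pcgf6* line and 16.4, 34.9 and 60.6 TPM in the *Pcgf1* line. *Mirg* was 0.640, 0.799 and 2.18 TPM in the *Ring1A/B* line (-3.40 ± 0.28 (SE), adjusted p = 6.6e-15) and 3.496, 15.1 and 24.4 TPM in the *Pcgf1* line. *Dlk1*, expressed from the paternal copy of the cluster, had another order, at 0.637, 4.63 and 18.4 TPM in *Ring1A/B*, 0.137, 2.04 and 4.35 TPM in *Pcgf6*, 0.418, 1.81 and 5.07 TPM in *Pcgf1* and 0.314, 0.550 and 0.854 TPM in *Pcgf2/4*. Its lowest values lay in *Pcgf6*, and its ranges overlapped between these lines.

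By median, *Peg3* was lowest in the *Pcgf6* line, at 0.472, 1.14 and 16.4 TPM (-3.29 ± 0.41 (SE), adjusted p = 2.1e-09), where every library was below the lowest library of the *Pcgf3/5* line (16.7 to 52.1 TPM) and 7 of 8 below the lowest of the *Pcgf1* line (4.88 to 67.7 TPM). *H19* was 0.684, 2.31 and 6.28 TPM in the point mutant line (-3.17 ± 0.47 (SE), adjusted p = 3.5e-07) and 13.9, 36.8 and 1006 TPM in the *Ring1A/B* line (2.45 ± 0.47 (SE), adjusted p = 5.8e-05). *Igf2* was 4.65, 13.7 and 208 TPM in the *Ring1A/B* line (2.91 ± 0.54 (SE), adjusted p = 2.7e-05) and 0.436, 0.882 and 1.97 TPM in the *Pcgf3/5* line (-2.19 ± 0.54 (SE), adjusted p = 0.0016). Without the pair of *Ring1A/B* libraries labelled mutant EB, an alternative added after seeing the data, the *Ring1A/B* differences were 1.15 (adjusted p = 0.028) for *H19* and 1.76 (adjusted p = 0.0099) for *Igf2*. *Meg3*, *Rian* and *Mirg* then differed by -2.19, -2.34 and -3.30 in the *Ring1A/B* line. *Peg13*, a noncoding RNA inside *Trappc9*, was 0.0310, 0.0919 and 0.140 TPM in the point mutant line (-2.24 ± 0.27 (SE), adjusted p = 1.9e-09) and 0.434, 0.988 and 3.12 TPM in the *Pcgf1* line. By median, *Igf2r* was lowest in the *Pcgf2/4* line, at 9.29, 12.8 and 18.7 TPM (-1.47 ± 0.25 (SE), adjusted p = 4.4e-06), and highest in the *Ring1A/B* line, at 50.6, 65.3 and 77.8 TPM.

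**Figure D5:**
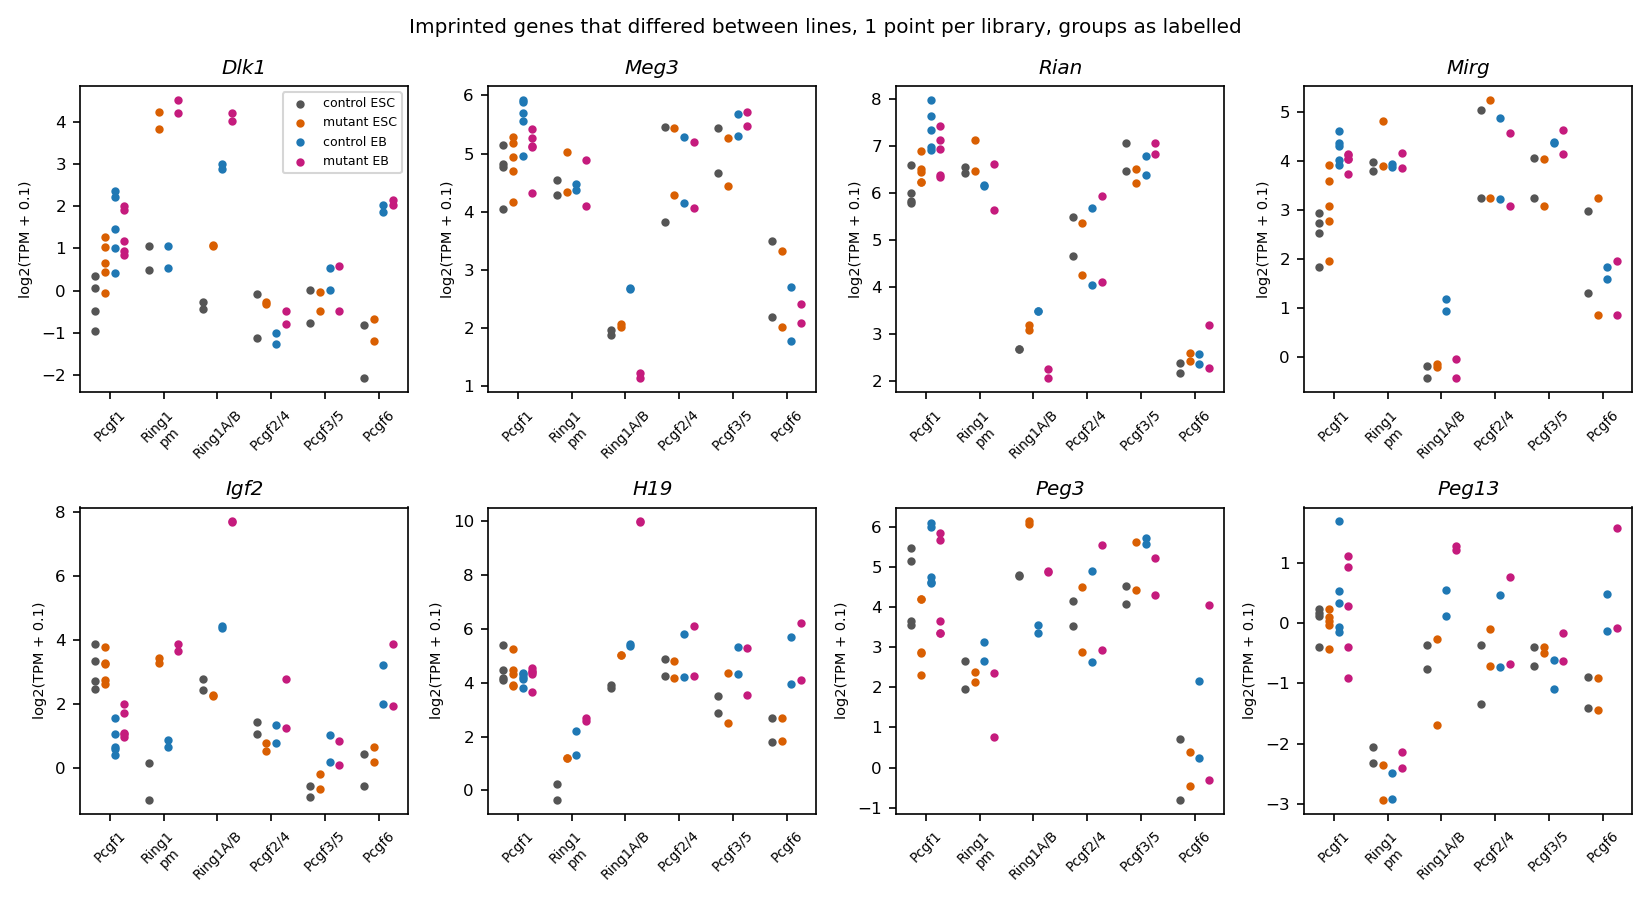
log2(TPM + 0.1) of 8 imprinted genes in each of 59 libraries (points) by line, coloured by group as labelled. *Meg3*, *Rian* and *Mirg* lie low in the *Ring1A/B* line and *Meg3* and *Rian* in the *Pcgf6* line, *H19* and *Peg13* lie low in the point mutant line, and the pair of *Ring1A/B* libraries labelled mutant EB is highest for *Igf2* and *H19*.

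A further list of 31 imprinted genes outside the 36 was counted in the same fits. In control EBs against control ESCs of the *Pcgf1* line 13 of 31 were called (6 higher, 7 lower), against 24.9% of all genes, with *Calcr* and *Cdkn1c* at the upper end and *Dio3* at the lower. With *Pcgf1* deletion 0 of 31 were called in ESCs (1 of 31 at an unadjusted p under 0.05) and 1 in EBs, *Cobl*, which was higher, against 0.641% and 1.95% of all genes. In the point mutant line 3 of 29 tested were called in ESCs and 3 in EBs, each time *Dio3*, *Gatm* and *Cdkn1c*, all higher, against 2.54% and 4.53% of all genes. Of 9 genes that maintain imprints, among them *Zfp57*, *Trim28* and *Dnmt1*, 0 were called upon *Pcgf1* deletion or point mutation in ESCs or EBs. At an unadjusted p under 0.05 these were 0 and 1 of 9 for *Pcgf1* in ESCs and EBs, and 1 and 1 of 9 for the point mutations. The unadjusted counts of both lists are not set against all genes here. With the replicate block the *Pcgf1* line gave 2 of the 9 in EBs, *Zfp57* and *Eed*, both higher, against 10.4% of all genes.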

How the data were processed

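RNA-seq of 59 libraries from 6 mouse ESC lines was used. The authors aligned reads with STAR (version 2.5.2b) to mm9, per the labels and methods, and deposited TPM by gene symbol. The strand setting and the treatment of overlapping genes are not given in the sources used here. Every library summed to 1000000 TPM, so the depth is unknown and no counting interval is given.

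In R (version 4.3.3), limma (version 3.58.1) was fitted to log2(TPM + 0.1) over the 4 labelled groups of each line, for genes above 0 TPM in at least 1 library of the line, with a mean-variance trend and Benjamini-Hochberg adjustment over all genes, and called at an adjusted p under 0.05. Fold changes on this scale understate the change of genes near 0. Lines were compared in 1 fit of the 59 libraries. Alternatives were median-of-ratios scaling, a pseudocount of 1, a filter on a mean TPM of 1 or more, the replicate number or library series as a block, group means, and omission of each library. The series block, the joint fit of 2 lines and the omission of 2 *Ring1A/B* libraries were added after seeing the data. In the *Pcgf1* line the replicate numbers of the labels were taken as pairs, since all 27 same-numbered pairs correlated in their deviations from the group means (r from 0.317 to 0.653 over 13400 genes). Replicate 1, replicates 2 and 3, and replicates 4 and 5 were read as separate library series, inferred from identifiers that do not name such series. The correlation between differently numbered libraries was not computed, so true pairs and a shared series cannot be told apart. For 1 *Pcgf1*-KO EB library the title gives replicate 4 and another label 5, and the former was used. Nothing says that replicates came from separate cultures, so p-values measure the spread between libraries. Genes were named if called in the *Pcgf1* or point mutant line, or if over 2 (log2) from the other lines. The members and lists were chosen with earlier results of these data known. The fitting was tested on simulated data. Promoters are from RefSeq (GRCm38.p6) and gene positions from GENCODE (mm9).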

Additional observations from a re-analysis of the deposited data

Results flagged for a closer look

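The difference between the point mutant and *Pcgf1* lines itself passed the test in the joint fit for 10 results. For control EBs against control ESCs (log2, point mutant minus *Pcgf1*) these were *Mest* (-3.45), *Igf2* (3.44), *Sgce* (2.78), *Plagl1* (2.19), *H19* (2.17) and *Cd81* (1.00). For the mutation in ESCs it was *Igf2* (3.74), and in EBs *Dlk1* (3.69), *Igf2* (2.48) and *Rasgrf1* (2.30), where the point mutant controls are listed at 0 and the value depends on the pseudocount.

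Single libraries stood apart from the others of their group in 12 of 142 groups of member values in the *Pcgf1* line (8.45%). Chance gives about 1 in 20, but this does not apply to groups near 0. With every other library at 0, any value above 0 is flagged. This was so for *Snrpn* in control ESC replicate 4 and *Rasgrf1* in *Pcgf1*-KO ESC replicate 4 and *Pcgf1*-KO EB replicate 2. The share is thus not read as an excess. Above their groups lay *Gnas* in control ESC replicate 2 (75.3 TPM) and *Pcgf1*-KO EB replicate 2 (78.3 TPM), *Peg13* in control EB replicate 3 (3.12 TPM), *Snrpn* in control EB replicate 2 (2.19 TPM) and control ESC replicate 4 (0.0682 TPM), and *Rasgrf1* in *Pcgf1*-KO ESC replicate 4 (0.0320 TPM), control EB replicate 3 (0.120 TPM) and *Pcgf1*-KO EB replicate 2 (0.0940 TPM). Below their groups lay *Usp29* in control ESC replicate 4 (0.326 TPM), *Mirg* in *Pcgf1*-KO EB replicate 3 (13.2 TPM), *Ppp1r9a* in *Pcgf1*-KO EB replicate 1 (6.43 TPM) and *Nnat* in *Pcgf1*-KO ESC replicate 1 (5.46 TPM).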

How the results depend on the processing

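Depth is unknown, and groups outside the *Pcgf1* line hold 2 libraries each. No named call changed sign under any alternative. Of the 34 named calls of the *Pcgf1* line 24 were kept under all alternatives run, and of the 12 of the point mutant line 0 were, each being lost on leaving out at least 1 library. Counts of called genes changed by over 1.5 times as follows, and why was not tested. With *Pcgf1* deletion in ESCs the count was 0, against 1 with a pseudocount of 1, 2 with median-of-ratios scaling, and 9 with the replicate block or the library series as a block. In EBs it was 1, against 2 with median-of-ratios scaling, 9 with the replicate block and 11 with the series block. For *Pcgf1*-KO EBs against *Pcgf1*-KO ESCs it was 13, against 22 with either block. The interaction gave 1 in place of 0 with the replicate block. This block also raised the share of all genes called, from 0.641% to 5.31% in ESCs and from 1.95% to 10.4% in EBs. For *Pcgf1*-KO EBs against *Pcgf1*-KO ESCs the share rose from 18.3% to 36.8%, and for the interaction from 0.00486% to 1.62%. For the other settings and the point mutant line such shares are not given, so a higher count is not read as a gain in imprinted genes. In the point mutant line control EBs against control ESCs gave 1 in place of 2 with a pseudocount of 1, and mutant ESCs gave 6 in place of 3 with a mean TPM of at least 1 and 7 with the replicate block. There, with 2 libraries per group, the numbers were not taken as pairs, unlike in the *Pcgf1* line. The deviations of same-numbered libraries still correlated at 0.106 to 0.381 (-0.0376 to 0.0481 in *Ring1A/B*, 0.616 to 0.758 in *Pcgf2/4*, -0.79 to 0.0823 in *Pcgf3/5* and 0.281 to 0.759 in *Pcgf6*). The block moved no other count by over 1.5 times. A pseudocount of 1 gave 5 in place of 8 for the *Pcgf1* and *Pcgf3/5* lines against the others.

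Leaving out single libraries gave 0 to 2 called genes for *Pcgf1* deletion in ESCs (1 without control EB replicate 1 or control ESC replicate 4, 2 without control EB replicate 3) and 1 to 2 in EBs (2 without *Pcgf1*-KO EB replicate 1). In the point mutant line it gave 0 for control EBs against control ESCs under every omission. For mutant ESCs it gave 0 to 1, with 1 only without control ESC replicate 1. For mutant EBs it gave 0 to 4, with 4 without either control ESC library and 0 without any other library. A lone library left in a group was assumed to vary like the other groups. Scaling by the median of ratios moved the median log2 difference of all genes by over 0.1 also in the *Ring1A/B* (-0.13, control EB against control ESC) and *Pcgf6* (-0.37 and -0.10) contrasts, and in the *Pcgf1* (-0.19), *Ring1A/B* (-0.10), *Pcgf2/4* (0.13) and *Pcgf6* (0.17) lines against the others.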
